A study of Mus musculus with 6 samples.

Results

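The primary cilium genes examined here were 50 genes for intraflagellar transport, its motors, the BBSome, the transition zone and the nephronophthisis proteins. They were chosen by symbol from a list of names, out of 23276 gene symbols in the deposited table, and all 50 were found. RNA of whole kidneys was sequenced from 6 mice at post-natal day 22. In 3 of them, labelled KspCre; Pkd1 F/RC and named *Pkd1*F/RC-SKO here, Cre driven by the Ksp promoter in kidney tubules recombined the floxed *Pkd1* allele over a hypomorphic RC allele. The other 3, named *Pkd1*F/RC-DKO, carried the same alleles and a floxed miR17∼92 cluster on both chromosomes, so that every kidney of the study had the *Pkd1* mutation and none was wild type. Cre acts in tubules, and whole kidney also holds cells in which no allele was recombined.

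The deposited table gives 1 mean abundance for each transcript over the 6 kidneys together, as log2 CPM (counts of reads scaled to the size of the library). Its remaining values are the authors' own comparison of DKO with SKO kidneys and were not used here. No value for a single kidney is in the table used here, so the levels below carry no SD, the depth of each library is unknown, and neither the spread between mice nor a difference between the genotypes is described. The cluster's host transcript *Mir17hg* had a mean of 4.21 CPM over both groups, which does not check the labels.

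Primary cilia project singly from most kidney tubule cells into the lumen and hold the polycystins, the proteins mutated in polycystic kidney disease. Proteins enter and leave by intraflagellar transport (IFT), in which trains of IFT-B and IFT-A subunits are pulled to the tip by kinesin-2 and back to the base by dynein-2. The BBSome rides on the trains and carries membrane proteins out of the cilium, small GTPases of the ARL family steer the BBSome and lipid-anchored cargo, and the transition zone at the base is the gate that controls entry. Loss of many of these genes causes cystic kidneys in mice or people.

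A feature shared by many of the members that their choice did not use was the X-box, the binding motif of RFX transcription factors, which regulate many ciliary genes. The motif was searched as the arm GTTNCC followed after 1 to 3 bases by the arm GGNAAC, a pattern that reads the same on both strands, in RefSeq promoter windows of GRCm38.p6 (the assembly of mm10) from 250 bases before to 50 bases after a transcription start. Of the 50 members, 44 had at least 1 such window. With at most 1 mismatch, 14 of the 44 members (31.8%) held an X-box, against 1479 of 27025 genes with a window (5.47%) and 4.83% of all 32851 windows. With no mismatch these were 6 of 44 members (13.6%) and 244 of 27025 genes (0.903%). The sites without a mismatch are shown because they match the motif most closely, with the motif from the first to the last letter of its arms in capitals and the gene read from 5′ to 3′.
Ahi1 (chr10:20952568-20952581, 21 bases after the start): gtctgaGTTACCTAGGCAACagcggc
Bbs7 (chr3:36613497-36613510, 121 bases before the start): gccccgGTTGCCTTGGAAACcggcca
Ift57 (chr16:49699234-49699246, 60 bases before the start): cctgcgGTTGCCTGGTAACggtggg
Mks1 (chr11:87853191-87853204, 24 bases before the start): gtctccGTTGCCAGGGGAACgaggca
Tctn1 (chr5:122264411-122264424, 36 bases after the start): gtgactGTTGCCCGGGCAAC
Tctn3 (chr19:40612359-40612371, 140 bases before the start): ccagcgGTTGCCAGGTAACgggaac

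The X-boxes were spread unevenly over the complexes. The list of transition zone genes, on which *Nphp4* was not placed, held 8 of the 14, in 8 of its 10 genes with a window, and 4 of the 6 without a mismatch. The BBSome core had 3 of 7, IFT-B 2 of 9 and the nephronophthisis group 1 of 3. No match was found in the windows of the 5 IFT-A genes, the 4 motor genes, the 3 ARL GTPases, the 2 BBS chaperonins or *Ofd1*. The distances of the 6 exact sites from the transcription start of the window searched ran from 21 to 140 bases on either side of it. For some genes that start was not the outermost annotated 5′ end. This end was 36613492 on chromosome 3 for *Bbs7* and 20952232 on chromosome 10 for *Ahi1*.

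**Figure D1:**
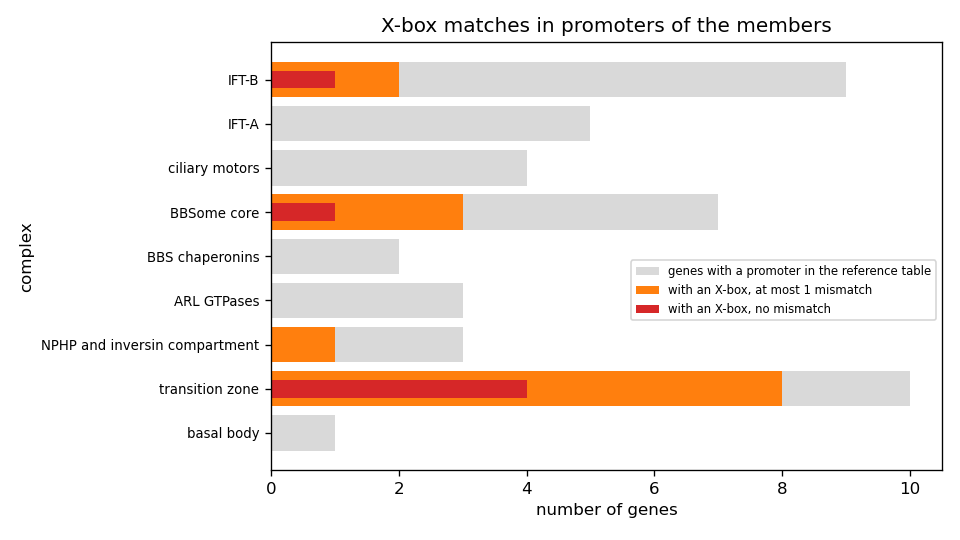
Number of member genes (x axis) in each complex (y axis) with a RefSeq promoter window (grey), with an X-box of at most 1 mismatch (orange) and with an exact X-box (red). The transition zone reaches 8 of 10 genes, and the IFT-A and motor rows hold no match.

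The 8 further members with 1 mismatch included both B9 genes and *Bbs1*. The 4 that lie within 16 bases of the transcription start of their window are shown. That start was not the outermost annotated 5′ end for *Ift52* (163017117 on chromosome 2) and *Bbs1* (4906653 on chromosome 19).
B9d1 (chr11:61505138-61505151, 6 bases before the start): ccgtctGTTTCCAAGACAACcgagag
B9d2 (chr7:25680796-25680809, 16 bases after the start): cctgctGTTGCCCCAGCAACagtcgg
Bbs1 (chr19:4906613-4906626, 1 base after the start): gagctgGTTGCCAAGGCGACgcctgg
Ift52 (chr2:163017346-163017358, 7 bases before the start): acagtcTTTACCGGGAAACgggcca
The others were *Bbs4*, *Cc2d2a*, *Nphp4* and *Tctn2*. A match is a description of the letters and not a measurement of binding. Among cilium genes outside the members, X-boxes with at most 1 mismatch lay in 3 of 6 other IFT genes with a window, 4 of 7 other transition zone and nephronophthisis genes, 4 of 9 genes of motile cilia, 2 of 7 other motor genes, 2 of 8 genes of distal appendages and 1 of 4 other BBS genes. No X-box was found in the windows of 4 genes for ciliary cargo. The 14 members with an X-box had a median level of 2.24 CPM per kb of transcript (range 0.261 to 9.50) and the 30 without one a median of 2.89 (0.808 to 43.6), and the ranges overlapped.

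All 50 members were above 1 CPM, as were 13001 of the 23276 genes (55.9%). The median member had 9.97 CPM, against 2.36 over all genes and 12.6 over the genes with at least 1 CPM. Because a long transcript collects more reads, levels of genes were compared after division by the length of the transcript, as CPM per kb. Undivided CPM is given beside it for some of the genes whose order or gap turns on length. On that scale the median member had 2.69 CPM per kb, against 0.973 over all genes and 4.18 over the genes with at least 1 CPM. Of the 50 members, 47 lay above the median of all genes and 16 above that of the genes with at least 1 CPM. Among the 12944 genes with at least 1 CPM and a known length, 31 members fell between the quartiles of 1.83 and 9.35 CPM per kb, 4 above and 15 below. The members were thus moderately expressed and seldom abundant. They spanned 167-fold, from 0.261 for *Nphp4* to 43.6 for *Arl3*. In whole kidney RNA a low level may come from fewer cells with a cilium or from less RNA in each, which cannot be told apart.

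**Figure D2:**
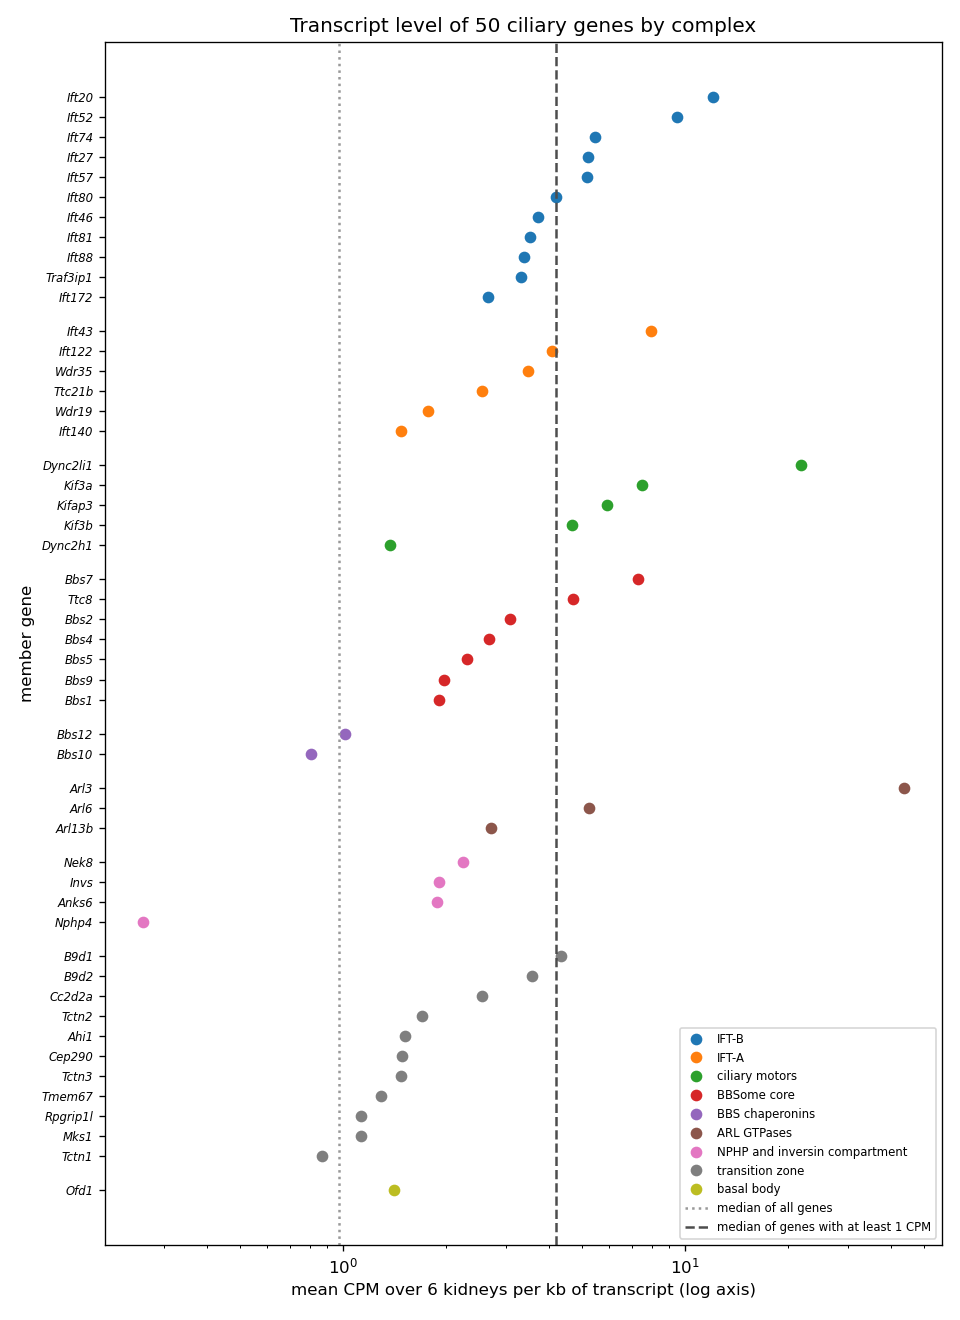
Mean CPM over 6 kidneys per kb of transcript (x axis, log scale) of each of the 50 genes (y axis), 1 point a gene, coloured by complex, with the medians of all genes (0.973) and of genes with at least 1 CPM (4.18) as vertical lines. Most points lie between the lines, Arl3 and Dync2li1 lie far to the right and Nphp4 far to the left.

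The complexes differed in their typical level. The median per kb was 5.92 over the 5 motor genes, 5.23 over the 3 ARL GTPases, 4.19 over the 11 IFT-B genes, 3.01 over the 6 IFT-A genes and 2.68 over the 7 genes of the BBSome core. It was 1.89 over the 4 nephronophthisis genes, 1.49 over the 11 transition zone genes and 0.912 over the 2 BBS chaperonins, and *Ofd1*, a protein of the basal body and centriolar satellites, had 1.41. Most of the 11 listed IFT-B genes were therefore at higher levels per kb than most of the 11 listed transition zone genes. The median of IFT-B was 2.82-fold that of the transition zone, and in 111 of the 121 pairs of an IFT-B and a transition zone gene the IFT-B gene had more CPM per kb. IFT-B and IFT-A overlapped more, with the IFT-B gene higher in 49 of 66 pairs. Outside the members, 7 other IFT genes had a median of 1.96 CPM per kb. It was 2.33 over 10 other transition zone and nephronophthisis genes, so the median of the IFT genes was not the higher there. That IFT median counts *Ttc30a2*, *Ttc30a1* and *Ttc30b* separately, near-identical copies with 0.0405, 0.540 and 1.70. *Cluap1*, *Hspb11*, *Ift22* and *Ttc26*, the rest of that list, had 12.04, 6.13, 3.05 and 1.96. These are descriptions of 1 mean value a gene, without a test.

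IFT-B is the part of the train needed for movement to the tip. Its 11 genes ran from 2.66 CPM per kb for *Ift172* to 12.1 for *Ift20*, a range of 4.54-fold. *Ift20*, a small subunit that also sits at the Golgi, had 13.8 CPM on a transcript of 1141 nucleotides. *Ift52*, a scaffold of the core, had 9.50 CPM per kb. *Traf3ip1* (IFT54) and *Ift172*, peripheral subunits, were lowest with 3.31 and 2.66. *Ift88*, mutated in the cystic Tg737 mouse, had 3.37 and *Ift81* had 3.53. *Ift74*, which binds tubulin together with IFT81, had 5.46. The GTPase gene *Ift27* had 5.21, and *Ift57*, *Ift80* and *Ift46* had 5.18, 4.19 and 3.71. Unscaled CPM gave another order, since *Ift20* and *Ift172* had 13.8 and 14.4 CPM.

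IFT-A, which returns trains to the base and brings membrane proteins in, ran from 1.48 CPM per kb for *Ift140* to 7.94 for *Ift43*. *Ift43* has the shortest transcript of the complex, 783 nucleotides, and the lowest unscaled level of it, 6.22 CPM. *Ift122* and *Wdr35* (IFT121) had 4.08 and 3.47 CPM per kb, *Ttc21b* (IFT139) 2.55 and *Wdr19* (IFT144) 1.78. *Ift140*, *Wdr19* and *Ttc21b* were the lowest members of the complex per kb. In undivided CPM they had 8.10, 7.82 and 11.4, above *Ift43*.

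Of the motors, the 3 subunits of heterotrimeric kinesin-2 were close to each other. *Kif3a*, *Kifap3* and *Kif3b* had 7.49, 5.92 and 4.68 CPM per kb, and 23.7, 23.7 and 26.4 CPM. The dynein-2 genes were far apart. The light intermediate chain *Dync2li1* had 21.8 CPM per kb and the heavy chain *Dync2h1* 1.37, a ratio of 15.9, although their unscaled levels of 29.5 and 19.1 CPM differed by 1.54-fold. The 2 transcripts are 1354 and 13972 nucleotides long, so this gap rests on the division by length. Over all 50 members, Spearman's rho of the level per kb with transcript length was -0.55, and that of the undivided CPM was 0.20. Division by length builds a negative correlation into the first value, which was -0.31 over the 12944 genes of 1 CPM or more. These correlations are across genes, which share libraries and are not replicates.

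The BBSome core ran from 1.91 CPM per kb for *Bbs1* to 7.27 for *Bbs7*, a range of 3.80-fold. *Ttc8* (BBS8) had 4.71, *Bbs2* 3.07, *Bbs4* 2.68, *Bbs5* 2.31 and *Bbs9* 1.97. This order turns on length. In undivided CPM *Bbs7* had 19.5, *Bbs1* and *Ttc8* 10.7 each, *Bbs2* 9.42, *Bbs9* 6.75, *Bbs4* 6.74 and *Bbs5* 3.39. The value of *Bbs7* rests on an assembled transcript, and its RefSeq transcript had 9.57 CPM (3.56 per kb), which lies between *Ttc8* and *Bbs2*. *Bbs10* and *Bbs12*, chaperonin-like proteins that help the BBSome to assemble, were at 0.808 and 1.02 CPM per kb and ranked 49 and 47 of the 50 members. Both were below every core subunit, but *Mkks* (BBS6), a related chaperonin-like gene outside the members and named after its value was seen, had 4.56 CPM per kb.

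The ARL GTPases held the highest member of all. *Arl3*, which releases lipid-anchored proteins from their carriers inside the cilium, had 36.8 CPM and 43.6 CPM per kb, more than 97.3% of all genes with a length. *Arl6* (BBS3), which recruits the BBSome to membranes, had 5.23 and *Arl13b*, the activator of ARL3, 2.70. *Arl3* was thus 16.1-fold above its activator per kb and 3.86-fold in unscaled CPM. The next member was *Dync2li1*, with 21.8 CPM per kb.

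Among the nephronophthisis genes, those of the inversin compartment were at like levels per kb. The kinase gene *Nek8* had 2.25 CPM per kb, *Invs* (inversin) 1.90 and *Anks6*, which binds NEK8, 1.88. In undivided CPM the order was another, with 10.7 for *Invs*, 6.69 for *Anks6* and 6.32 for *Nek8*. *Nphp4*, a transition zone protein, was the lowest of the 50 members on either scale, with 1.31 CPM and 0.261 CPM per kb. It lay 8.63-fold below *Nek8* per kb and 4.82-fold in undivided CPM. *Nphp4* had 1 transcript in the table, and no other member was under 2 CPM.

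The 11 genes listed as transition zone, which leave out *Nphp4*, ran from 0.869 CPM per kb for *Tctn1* to 4.35 for *B9d1*. On that scale 9 of the 11 lay below the lowest IFT-B gene, a count that turns on length. In undivided CPM the lowest IFT-B gene was *Ift27* with 5.28. *Cc2d2a*, *Cep290*, *Rpgrip1l*, *Ahi1* and *Tctn2* lay above it with 14.0, 11.9, 7.90, 7.37 and 5.79, and the other listed transition zone genes below. *B9d1* and *B9d2*, partners in the B9 complex, were the group's highest members per kb with 4.35 and 3.56 and have its shortest transcripts. In undivided CPM they had 3.55 and 3.63, and of the group only *Mks1* was lower, with 2.81. *Tctn1*, the lowest per kb, had 4.97 CPM. *Cc2d2a* had 2.56 and the highest unscaled level of the group, 14.0 CPM. The tectonics *Tctn2*, *Tctn3* and *Tctn1* had 1.70, 1.48 and 0.869. *Ahi1* (jouberin) and *Cep290*, which spans the gap between microtubules and membrane, had 1.52 and 1.49. *Tmem67* (meckelin), the membrane protein gene behind the cystic bpck mouse, had 1.29, and *Rpgrip1l* and *Mks1* were near the bottom with 1.13 each.

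The table listed 102 transcripts for the 50 members, 57 of them RefSeq mRNAs and 45 assembled from the reads. Of the members 16 had 1 transcript, 21 had 2, 10 had 3, 2 had 4 and *Anks6* had 6, and a gene was given the level of its highest. For 22 of the 34 genes with more than 1, all transcripts lay within 1.1-fold of each other. In 6 genes the highest value was shared by more than 1 transcript to 6 decimals, so the same reads may have been counted on each, and the transcripts of a gene were not added.

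**Figure D3:**
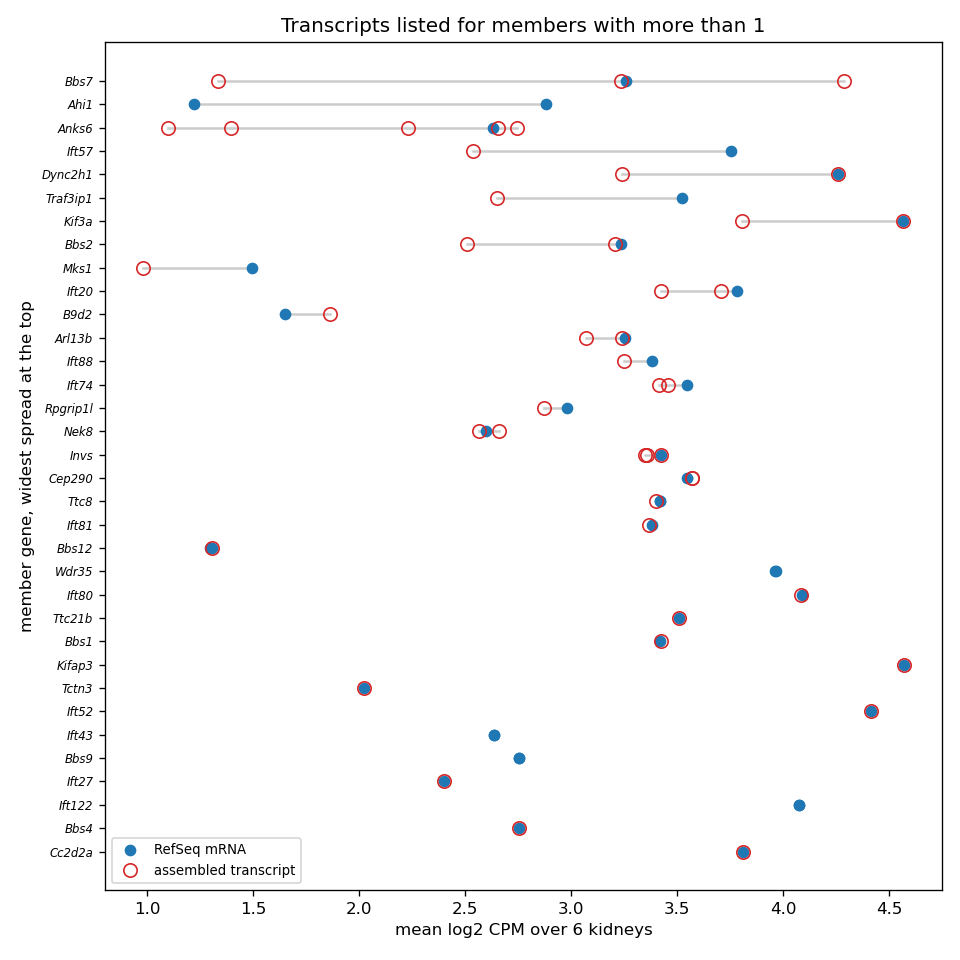
Mean log2 CPM (x axis) of every transcript of the 34 genes with more than 1 (y axis, widest spread at the top), RefSeq mRNAs as filled and assembled transcripts as open points, with a line from the lowest to the highest. Points coincide for most genes, and those of Bbs7, Ahi1 and Anks6 are widest apart.

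Transcripts differed by over 1.5-fold in 8 genes. The widest gap was that of *Bbs7*, whose 4 transcripts had mean log2 CPM of 4.29, 3.26, 3.23 and 1.33. Its highest was an assembled transcript 2.04-fold above the RefSeq mRNA, and the table gives no position for it, so its overlap with a neighbouring gene was not tested. *Ahi1* had 2 RefSeq mRNAs at 2.88 and 1.22, a gap of 3.17-fold. *Anks6* ran from 2.74 to 1.098 over its 6 transcripts, 3.13-fold. *Ift57* and *Dync2h1* followed with 2.32-fold and 2.02-fold, where the RefSeq mRNAs had 13.5 and 19.1 CPM, as the highest transcripts did. An assembled transcript was the highest in 10 members, but it exceeded the RefSeq mRNA by over 1.1-fold only in *Bbs7* and *B9d2*.

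The 7 other IFT genes had a median of 1.96 CPM per kb, from 0.0405 for *Ttc30a2* to 12.04 for *Cluap1* (IFT38). *Ttc30a2*, *Ttc30a1* and *Ttc30b*, which are near-identical copies, had 0.0405, 0.540 and 1.70. Whether reads shared by them were lost to the filter on mapping quality was not tested. The 4 other BBS genes ran from 2.83 for *Trim32* to 6.61 for *Bbip1*, the smallest BBSome subunit. *Bbip1* lay below *Bbs7* by its assembled transcript and above all 7 core genes when *Bbs7* was taken by its RefSeq mRNA. The 10 other transition zone and nephronophthisis genes had a median of 2.33 CPM per kb. The 7 other motor genes ran from 0.0649 for *Kif17*, a homodimeric kinesin-2, to 68.0 for *Dynlrb1*, a light chain that dynein-2 shares with cytoplasmic dynein. The 8 genes of distal appendages and early ciliogenesis ran from 1.16 for *Cep97* to 3.75 for *Cep89*.

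The cargo of tubule cilia had a higher median level than the machinery. The 5 genes had a median of 11.4 CPM per kb, 4.22 times that of the members, and ran from 2.25 for *Pkd1* to 18.8 for *Pkd2*. *Pkd1* is the gene floxed in all 6 mice, and *Pkd2*, its channel partner, was 8.37-fold above it per kb and 3.08-fold above it in undivided CPM. The RFX factors were themselves present, from 0.538 for *Rfx2* to 3.197 for *Rfx7*, with *Rfx3* at 2.83.

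Genes of motile cilia lay mostly below the members. The 12 genes, among them the dynein arm genes and the master regulator *Foxj1*, had a median of 0.0609 CPM per kb, and all 12 lay below the median member and 9 of the 12 below *Nphp4*, the lowest. They ran from 0.00654 for *Hydin* to 0.738 for *Rsph1*, and 9 of the 12 were under 1 CPM, with *Foxj1* at 1.05 CPM, *Dnah11* at 1.20 and *Ccdc39* at 2.30. The photoreceptor gene *Pde6b*, from a cell with a specialised cilium, had 0.0104 CPM per kb.

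**Figure D4:**
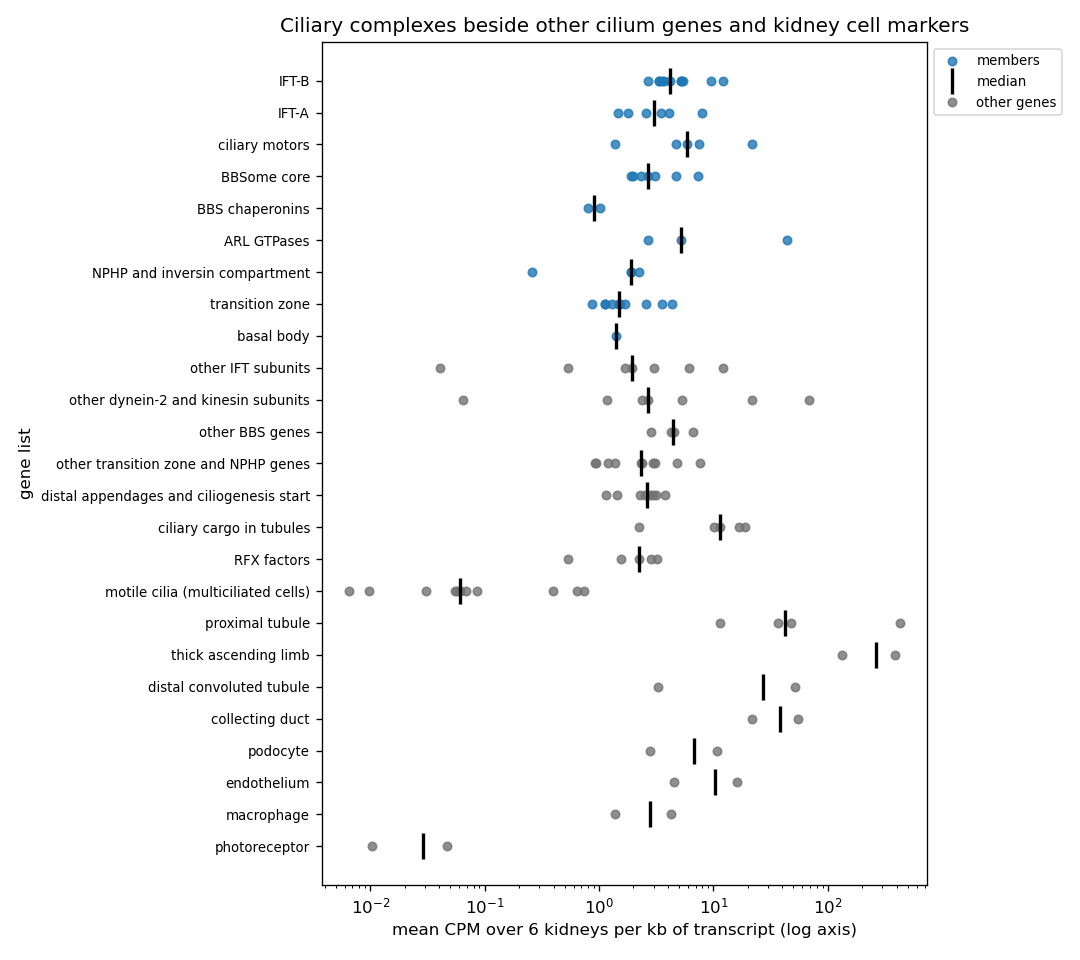
Mean CPM over 6 kidneys per kb of transcript (x axis, log scale) of the genes of each list (y axis), members in blue and other genes in grey, with the median as a black bar. The medians of the ciliary complexes lie between 0.912 and 5.92, that of motile cilia genes lies to the left at 0.0609, and single genes of the related lists reach 0.0405 and 68.0.

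The labelled tissue was checked against defining markers, and all of the kidney lists were present. *Slc34a1* and *Cubn* of the proximal tubule had 423.4 and 11.4 CPM per kb, *Umod* and *Slc12a1* of the thick ascending limb 389.5 and 133.1, and *Slc12a3* and *Pvalb* of the distal convoluted tubule 51.3 and 3.30. *Aqp2* and *Atp6v1g3* of the collecting duct had 54.8 and 21.8. Markers of other cells were detected too. *Nphs1* of podocytes had 2.81, *Pecam1* and *Kdr* of endothelium 16.1 and 4.56, and *Cd68* and *Adgre1* (listed as *Emr1*) of macrophages 4.22 and 1.39. The part of these cells in the levels of ciliary genes was not tested.

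The DKO mice lack miRNAs of the miR-17∼92 cluster in recombined cells, so the members' 3′-UTRs were searched for sites of its miR-17 and miR-19 seeds. The seeds of its miR-18a and miR-92a were not searched. The cluster's 4 mature miRNAs of the miR-17 and miR-19 families (RefSeq, GRCm38.p6, chromosome 14) are shown with the seed, bases 2 to 8, in capitals.
mmu-miR-17-5p: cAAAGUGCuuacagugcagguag
mmu-miR-20a-5p: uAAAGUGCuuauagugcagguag
mmu-miR-19a-3p: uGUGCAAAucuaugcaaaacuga
mmu-miR-19b-3p: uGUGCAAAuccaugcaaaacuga
miR-17 and miR-20a share a seed, whose site is GCACTTT, as miR-19a and miR-19b do, whose site is TTTGCAC.

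A 3′-UTR could be assigned to 49 members (median 643 nucleotides, against 784 over 19133 genes) in the GENCODE annotation of the same assembly. The miR-17 site occurred in 5 of 49 members (10.2%) and in 2108 of 19133 genes (11.02%). The miR-19 site occurred in 7 of 49 (14.3%) and in 1913 of 19133 (9.998%). The first share was near that of all genes and the second lay above it, and neither was tested. The 5 members with a miR-17 site were *Bbs12*, *Ift88*, *Invs*, *Kif3b* and *Ofd1*, and those with a miR-19 site were *Ahi1*, *Dync2h1*, *Ift57*, *Invs*, *Kif3a*, *Nek8* and *Tctn1*. *Invs* alone held both. Its sites, and those of *Kif3b* and *Kif3a*, the paired motor subunits of kinesin-2, are shown with the 7 letters in capitals.
Invs miR-17 site (chr4:48431103-48431109): aaaacaaaagGCACTTTagtttgag
Invs miR-19 site (chr4:48429781-48429787): cgctttactaTTTGCACctaaagac
Kif3b miR-17 site (chr2:153332738-153332744): taggcatgaaGCACTTTgtaagact
Kif3a miR-19 site (chr11:53601410-53601416): gtctgtcttgTTTGCACacaacata
Each lies in the 3′-UTR on the forward strand. A match of letters is no measurement of repression, and the levels here are means over kidneys of both genotypes.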

How the data were processed

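Total RNA of 6 mouse kidneys, 3 labelled SKO and 3 labelled DKO, was made into stranded libraries. Per the methods and the submitters' processing notes, the authors trimmed single-end reads, mapped them with TopHat2 2.0.12 to mm10, discarded alignments of low mapping quality, and named Cufflinks, featureCounts (Subread 1.4.6) and edgeR 3.2.4. The deposited log2 values are a mean log2 CPM for each of 54721 transcripts over all 6 libraries, and the prior count and counting options are not given in the sources used here. The deposited table also holds fold changes, likelihood ratio statistics, p-values and adjusted p-values of the authors' own comparison, which were not used. Since no value of a single kidney is in the table used here, the members' levels have no error and no depth, and no test across genotypes was made.

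A gene was its transcript with the highest mean CPM. CPM per kb used the length of that transcript in GENCODE vM21 (39 members), of the gene's RefSeq transcript where the highest was assembled (10), or of the longest annotated transcript (1, *Tctn2*). Older symbols were matched through RefSeq synonyms. The members and lists were chosen with earlier results of these data known. Named genes were the 2 highest and 2 lowest of each complex, all of complexes of up to 4, the 3 with the widest gap between transcripts and the ends of each other list. Other members were named in addition, to account for all 50, and the X-box and seed sites printed were chosen after the matches were seen. A few genes at the ends of other lists are not reported here. Alternatives were other ways to choose transcripts, other lengths, a background of at least 1 CPM and stricter motifs. The X-box search with no mismatch was tested on simulated windows with planted sites. The setting with 1 mismatch and the search for seed sites were not tested in this way. Python 3.11.15, numpy 2.4.6, pandas 2.3.3 and matplotlib were used.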

Additional observations from a re-analysis of the deposited data

How the results depend on the processing

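A level was taken as moved when it changed by over 1.5-fold, since no replicate error exists here. Taking RefSeq mRNAs only, the median of a gene's transcripts, the lowest mean CPM subtracted or the longest annotated transcript moved no median of a complex relative to that of all members, and moved 1, 3, 0 and 2 of the 50 members. The sum over a gene's transcripts, which counts shared reads repeatedly, raised the members' median to 5.18 CPM per kb, moved 32 members, and put the nephronophthisis group at 1.35 times and *Ofd1* at 0.273 times the median of all members, against 0.704 and 0.525. Without division by length the ARL GTPases lay at 0.956 times that median, against 1.95. The members' median lay above 63.6% of all genes and above 35.6% of those with at least 1 CPM. The X-box share of members was 5.81 times that of all genes, and 15.1 times with no mismatch. The miR-17 site share was 0.926 times that of all genes, and 0.617 times for sites followed by A, which rest on 1 member. The miR-19 site share was 1.43 times, and 1.82 times for sites followed by A, which rest on 4 members. No kidney could be left out, and no count test, other normalization or depth limit could be had, because the table used here holds no value of a single kidney. No paired analysis was possible because the results come from no test and the table used here holds pooled values only.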
